A study of Zea mays with 15 samples.

Results

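The first step of the growth gradient in a maize leaf was described by comparing the segment 1 to 2 cm above the base of the leaf, called zone 2, with the segment 0 to 1 cm above it, called zone 1. Only plants grown under the filter that absorbed UV-B entered this comparison. It rests on 2 control zone 2 libraries (replicates 2 and 3) and 3 control zone 1 libraries (replicates 1, 2 and 3), 5 of the 15 libraries of the series. The members were defined by these labels and not by the level of any gene, but earlier results of these data were known when they were chosen. Total transcript reads were summed for each gene. All plants were of the inbred line B73, grown outdoors in a summer field, and leaf 4 was cut 3 days after it emerged. The UV-B level at noon averaged 0.35 W/m2 under the control filter and 1.5 W/m2 under the filter that let UV-B pass; UV-A averaged 8 W/m2 in each case. Other groups are set beside the main comparison: 3 UV-B zone 2 libraries, 1 UV-B zone 1 library, and 3 control zone 3 libraries from 2 to 3 cm above the base. The control plants therefore also received some UV-B. Each library is labelled as a biological replicate, and the labels do not say how many leaves it holds.

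A grass leaf grows from its base. Cells divide nearest the base, then stop dividing and elongate, and later mature and build the photosynthetic apparatus, so that distance from the base stands in for developmental age. Growth-regulating factors (GRF) are transcription factors that act with GRF-interacting factors (GIF) as coactivators, and in maize they are known to set the extent of the dividing region. Gibberellin is known in maize leaves to mark where division gives way to elongation.

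The 5 libraries held 4568682 and 7840247 reads in control zone 2, against 11147867, 17923081 and 14134762 reads in control zone 1. Levels are given as reads of a gene per 1000000 reads of the library (CPM), and are compared between libraries for 1 gene at a time. Control zone 1 replicate 1 stood apart from the other zone 1 libraries in clock genes, and zone 2 has no library of replicate 1. The clock gene gigz1a had 57.1 and 137 CPM in the zone 2 libraries, against 550 CPM in zone 1 replicate 1 and 87.8 and 140 CPM in zone 1 replicates 2 and 3. Over 19 clock and photoperiod genes the median log2 fold change of zone 2 over zone 1 was -1.03, and -0.11 without zone 1 replicate 1. Of these genes 1, PHYC, passed the test, and its call was lost in each fit with 1 of the 5 libraries left out. Levels were also summed over the 27 listed abscisic acid and dehydration genes, tested or not. Zone 2 had 1241 and 877.0 CPM, against 2378 CPM in zone 1 replicate 1 and 1271 and 988.9 CPM in replicates 2 and 3. The part of these differences in other results was not tested. Values without that library are given for some of the lists. The KNOX gene kn1, a marker of the shoot meristem, was nearly unread, with 1 read over zone 2 and none over zone 1.

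Of 23899 genes tested, 1990 (8.33%) differed between control zone 2 and control zone 1 at an adjusted p under 0.05 in edgeR's quasi-likelihood test with Benjamini-Hochberg adjustment. More genes rose than fell: 1585 (6.63%) were higher in zone 2 and 405 (1.69%) were lower. The median log2 fold change was 1.64 among the genes called higher and -1.40 among those called lower, against 0.01 over all genes tested. A change of more than 2-fold was seen for 1305 of the genes called higher and 310 of those called lower, and one of more than 8-fold for 260 and 55. The count rests on few libraries. It was 1068 without control zone 1 replicate 1, 1290 without zone 1 replicate 2, 1067 without zone 1 replicate 3, 879 without zone 2 replicate 2 and 1164 without zone 2 replicate 3. In all 5 of these fits 534 of the genes called higher and 40 of those called lower stayed past the threshold. The sign was kept by 1584 and 405 of them. The zones did not overlap for 1584 and 405 of these genes. Leaving out 1 library can then hardly turn the sign, so the kept sign adds no support. The CPM of the zone 2 and zone 1 libraries did not overlap for 10512 of the genes tested (44.0%), so a lack of overlap alone is common. Nearly all called genes lack overlap, and the genes named for the largest changes were chosen for it. It therefore adds no support to a call.

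**Figure D1:**
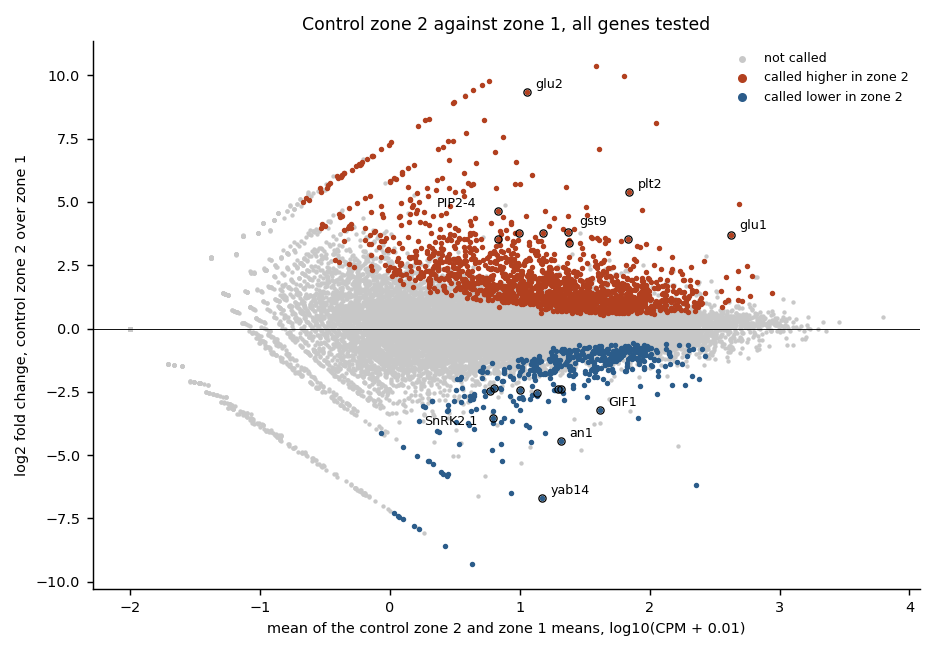
Log2 fold change of control zone 2 over control zone 1 for the 23899 genes tested, against mean abundance on a log10 scale of CPM; coloured points are the 1585 genes called higher and the 405 called lower, and rings mark 20 named genes. The genes called higher reach larger changes and are more numerous than those called lower.

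Many growth-regulating factors and a coactivator fell at this step. Of 18 members tested 9 were lower in zone 2 and none was higher, with a median log2 fold change of -1.20. Over all genes tested 1.69% were lower. With reads assigned to 1 transcript only, 4 members were called lower. GIF1, a GRF coactivator (chromosome 1, 273393235 to 273396891 in the deposited coordinates), had 9.63 and 5.87 CPM in zone 2, against 68.3, 92.8 and 62 CPM in zone 1. Every zone 2 library lay far below every zone 1 library, and the log2 fold change was -3.21 ± 0.32 (SE, adjusted p = 0.000254). GRF12 had 11.8 and 9.06 CPM in zone 2, against 39, 70.4 and 45.3 CPM in zone 1, a log2 fold change of -2.24 ± 0.31 (SE, adjusted p = 0.00116). GRF13 and GRF14 fell by 2.37 ± 0.37 and 2.55 ± 0.39 on the log2 scale (SE, adjusted p = 0.00216 for each). These 4 kept the call whichever library was left out. In a bulk segment, fewer cells that express a gene and less RNA per cell cannot be told apart.

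The other members called lower were GRF2, GRF3, GRF7, GRF8 and GRF11. GRF7 had no read in zone 2 and 98 reads in zone 1, and was at least 9.38-fold lower when 3 reads over the zone 2 libraries are taken as the floor. Each of these 5 lost the call in at least 1 fit with a library left out. The count of members called lower was 6 without control zone 1 replicate 1, 5 without zone 1 replicate 2, 6 without zone 1 replicate 3, 5 without zone 2 replicate 2 and 4 without zone 2 replicate 3. The family did not move as a block. GRF4 had 21.7 and 20.2 CPM in zone 2, against 19.3, 22.8 and 20.4 CPM in zone 1, and these levels overlapped. The coactivator GIF2 had 70.3 and 39.5 CPM in zone 2, against 46.7, 52.7 and 36.4 CPM in zone 1 (log2 fold change 0.35 ± 0.28, SE, adjusted p = 0.501).

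A few genes that pattern the leaf were lower in zone 2, and 1 of them, yab14, was nearly unread there. This YABBY factor (chromosome 10, 133133766 to 133136401), of a family that acts in leaf polarity, had 0.657 CPM and 0 in zone 2, against 22.9, 40.5 and 23.8 CPM in zone 1. That is 3 reads over zone 2 and 1317 over zone 1, a level 126.1-fold lower with a 95% counting interval of 43 to 612.2, and the edgeR call held in all 5 fits with a library left out. A second YABBY gene, yab10, had 2.41 and 1.53 CPM in zone 2, against 7.71, 12.9 and 11 CPM in zone 1 (log2 fold change -2.37 ± 0.64, SE, adjusted p = 0.0442). The liguleless factor lg2, which acts where the ligule forms between blade and sheath, had 1.09 and 1.02 CPM in zone 2, against 5.83, 8.42 and 7.15 CPM in zone 1 (log2 fold change -2.68 ± 0.68, SE, adjusted p = 0.0313). Neither zone overlapped the other for these genes, as for nearly all genes called. The calls of yab10 and lg2 did not hold in any fit with a library left out. Adjusted p for yab10 was 0.0768, 0.109 and 0.117 without zone 1 replicates 1, 2 and 3, and 0.134 and 0.182 without zone 2 replicates 2 and 3. For lg2 it was 0.0654, 0.0811 and 0.0867 without the zone 1 replicates, and 0.142 and 0.133 without the zone 2 replicates. Of 7 YABBY genes tested 2 were lower and none was higher, and of 10 KNOX and ligule genes 1 was lower. The share called lower over all genes tested was 1.69%.

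The ends of the gibberellin pathway moved in opposite directions. The gene an1, for the copalyl diphosphate synthase that makes the first committed step of gibberellin synthesis, had 2.63 and 1.02 CPM in zone 2, against 29.8, 47.1 and 41.2 CPM in zone 1. It fell by 4.43 ± 0.84 on the log2 scale (SE, adjusted p = 0.00680), and without zone 2 replicate 3 the adjusted p was 0.0641. Dwarf1, for the 3-oxidase that makes the bioactive hormone in the last step, had 18.2 and 15.6 CPM in zone 2, against 4.75, 5.41 and 5.38 CPM in zone 1. The log2 fold change of Dwarf1 was 1.77 ± 0.39 (SE, adjusted p = 0.0163). That call was lost without zone 1 replicates 1, 2 or 3, with adjusted p of 0.0636, 0.0526 and 0.0534, and without zone 2 replicate 2, with 0.102. Control zone 3 held 6.97, 7.59 and 2.57 CPM of Dwarf1, below both zone 2 libraries, with a log2 fold change of zone 3 over zone 2 of -1.57 ± 0.41 (SE, adjusted p = 0.0278). The DELLA gene D8, a repressor of gibberellin responses, had 84.0 and 85.2 CPM in zone 2, against 71.7, 78.7 and 75.4 CPM in zone 1 (log2 fold change 0.24 ± 0.22, SE, adjusted p = 0.571). Of 6 gibberellin genes tested, an1 and Dwarf1 were the called ones, beside 1.69% lower and 6.63% higher over all genes tested.

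Some auxin genes rose, among them genes of transport and of the Aux/IAA family. PIN10a, of the PIN family of auxin efflux carriers, had 11.2 and 13.6 CPM in zone 2, against 1.35, 0.614 and 1.42 CPM in zone 1, a log2 fold change of 3.54 ± 0.36 (SE, adjusted p = 0.00022). The transporter gene br2, whose loss shortens the maize stalk, had 54.9 and 87.1 CPM in zone 2, against 27.1, 23.2 and 30.6 CPM in zone 1 (log2 fold change 1.46 ± 0.23, SE, adjusted p = 0.00216). Both held in every fit with a library left out, and of 9 auxin transport and synthesis genes tested no other was called. Of 16 Aux/IAA genes, whose proteins repress auxin responses, 4 were higher (AUX10, AUX17, AUX32 and AUX35) and none was lower. AUX32, the one of them that held in every such fit, led them with 15.8 and 14.2 CPM in zone 2, against 2.33, 1.95 and 1.77 CPM in zone 1 (log2 fold change 2.95 ± 0.43, SE, adjusted p = 0.00148). Without zone 2 replicate 2 the Aux/IAA family had 1 member called higher and 1 called lower. It had 1 called higher and none lower with reads assigned to 1 transcript only. Of 16 auxin response factors tested 1, ARF21, was higher and 1, ARF23, was lower, and each lost the call in at least 1 fit with a library left out. Beside these auxin lists, 6.63% of all genes tested were higher and 1.69% were lower.

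Most genes of DNA replication and mitosis did not pass the test at this step. Of 21 replication genes 2 were called lower in zone 2, dnp2 and DRTS, beside 1.69% over all genes tested. The median log2 fold change of the 21 was -0.42 (-0.73 and -0.64 without zone 2 replicates 2 and 3). Only 3 of the 21 had a positive log2 fold change, and 8 did without zone 2 replicate 3. DRTS, for the bifunctional dihydrofolate reductase and thymidylate synthase that makes thymidylate, had 45.5 and 67.7 CPM in zone 2, against 102, 91.6 and 101 CPM in zone 1 (log2 fold change -0.73 ± 0.20, SE, adjusted p = 0.0407). The gene dnp2 had 47.7 and 42.7 CPM in zone 2, against 96.9, 107 and 105 CPM in zone 1 (log2 fold change -1.12 ± 0.25, SE, adjusted p = 0.0146). Both were separated from zone 1 in every library, as nearly all called genes were, and neither call was stable. For DRTS the adjusted p was 0.114, 0.0606 and 0.117 without zone 1 replicates 1, 2 and 3 and 0.293 without zone 2 replicate 2. For dnp2 it was 0.065 without zone 2 replicate 2 and 0.0935 without zone 2 replicate 3. The summed level of all 22 replication genes listed, tested or not, was 1942 and 1670 CPM in zone 2. It was 2434, 2703 and 2837 CPM in zone 1. MCM6, a subunit of the replicative helicase, had 152 and 149 CPM in zone 2, against 239, 262 and 318 CPM in zone 1 (log2 fold change -0.79 ± 0.70, SE, adjusted p = 0.552).

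Mitotic genes were still strongly read in zone 2. Of 22 cyclins, kinases and mitosis genes none was called lower and 1 was called higher, with a median log2 fold change of -0.31. The shares over all genes tested were 1.69% lower and 6.63% higher. Only 3 of the 22 had a positive log2 fold change, and 8 did without zone 2 replicate 3. Their summed level was 1417 and 1435 CPM in zone 2, against 1838, 1799 and 1921 CPM in zone 1. The cyclin gene cyclin9 had 93.5 and 102 CPM in zone 2, against 118, 119 and 137 CPM in zone 1 (log2 fold change -0.29 ± 0.39, SE, adjusted p = 0.719). The D-type cyclin cycD2, of a class that acts in the entry into the cell cycle, had 178 and 187 CPM in zone 2, against 109, 108 and 111 CPM in zone 1. It was the member called higher, by 0.81 ± 0.18 on the log2 scale (SE, adjusted p = 0.014). Its adjusted p was 0.0519 and 0.0534 without zone 1 replicates 1 and 2, and 0.0697 and 0.0593 without zone 2 replicates 2 and 3. Of 9 kinesins, motors of the mitotic spindle and of the microtubules, none was called, with a median of -0.65. A positive log2 fold change was found for 2 of the 9, and for 4 without zone 2 replicate 2. None of 32 histone genes was called either, and the sign of their change rests on 1 library: 31 of the 32 had a positive log2 fold change, with a median of 0.39, but without zone 2 replicate 2 only 1 was positive and the median was -0.39. Zone 2 replicate 2 held more histone reads than any other control library, with 23340 CPM summed, beside 10480 CPM in zone 2 replicate 3 and 11690, 17980 and 12440 CPM in zone 1. Reads shared between near-identical histone genes make single members uncertain.

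The next step up the leaf had other counts for the same lists. It compares control zone 3 with control zone 2 and so shares both zone 2 libraries with the main comparison. In that step 3184 genes (13.3%) were called, 1400 (5.86%) higher and 1784 (7.46%) lower in zone 3. Lower calls were made for 11 of the 21 replication genes, 14 of the 22 cyclins, kinases and mitosis genes and 5 of the 9 kinesins, with medians of -1.64, -1.49 and -1.85. For cyclin9 the zone 3 libraries had 19.9, 26.1 and 12.2 CPM, and its log2 fold change of zone 3 over zone 2 was -2.31 ± 0.41 (SE, adjusted p = 0.00627). GRF12 by contrast had 11, 6.23 and 7.88 CPM in zone 3 and a log2 fold change of -0.34 ± 0.31 (SE, adjusted p = 0.48). GIF1 had 0.498, 0.779 and 0.643 CPM in zone 3 and fell by 3.46 ± 0.41 on the log2 scale (SE, adjusted p = 0.00275). The difference between the steps was tested within each gene, as described further on. It called neither cyclin9 (adjusted p = 0.657) nor GRF12 (adjusted p = 0.491). That test does not set 1 gene against another, so it cannot decide on timing between genes, which was not tested. Without zone 2 replicate 3 the count of genes called in the second step was 558.

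**Figure D2:**
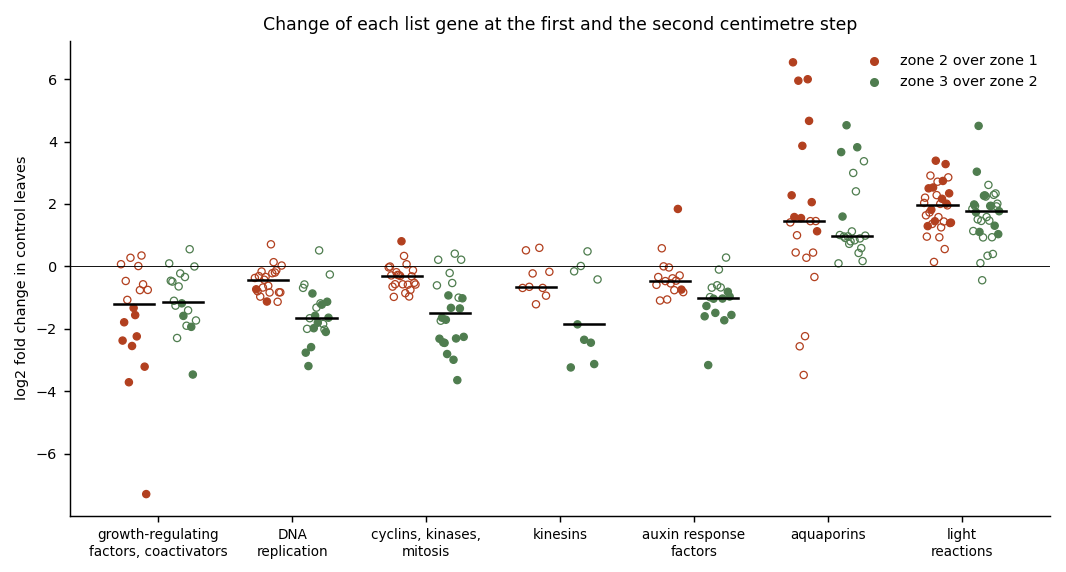
Log2 fold changes of single genes in 7 lists, in the first step (control zone 2 over zone 1, red) and the second step (control zone 3 over zone 2, green), filled where called and with a bar at the median. Growth-regulating factors have medians of -1.20 and -1.14, while cyclins, kinases and mitosis genes have medians of -0.31 and -1.49.

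Genes of chromatin, small RNAs and genome maintenance fell in part. Of 55 chromatin and DNA methylation genes 10 were lower and 1, mbd101, was higher, with a median of -0.59. The shares over all genes tested were 1.69% lower and 6.63% higher. Only 3 of the 55 were called lower with reads assigned to 1 transcript only. The list holds 57 genes, tested or not. Their summed level was 4451 and 4808 CPM in zone 2, against 7337, 7031 and 7668 CPM in zone 1. The RNA-dependent RNA polymerase gene mop1, which acts in RNA-directed DNA methylation, had 8.76 and 19.3 CPM in zone 2, against 59.9, 36.4 and 53.4 CPM in zone 1 (log2 fold change -1.76 ± 0.37, SE, adjusted p = 0.0112, and 0.105 without zone 2 replicate 2). SGS3, which acts in the production of trans-acting small interfering RNAs, had 139 and 198 CPM in zone 2, against 369, 343 and 392 CPM in zone 1 (log2 fold change -1.07 ± 0.24, SE, adjusted p = 0.0165). The libraries of both genes were separate between zones, as for nearly all genes called. For SGS3 the adjusted p was 0.0567 without zone 1 replicate 3 and 0.156 without zone 2 replicate 2. Without zone 2 replicate 2 no member of the list was called lower; the count was 3, 7 and 1 without zone 1 replicates 1, 2 and 3, and 7 without zone 2 replicate 3.

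Among 10 DNA repair genes 2 were lower and 1 was higher, beside 1.69% and 6.63% over all genes tested. None of the 10 was called with reads assigned to 1 transcript only. One that fell in every fit with a library left out was mre11A, for a nuclease of double-strand break repair, with 17.5 and 20.5 CPM in zone 2, against 60.8, 52.1 and 66.6 CPM in zone 1. It fell by 1.59 ± 0.27 on the log2 scale (SE, adjusted p = 0.0035), and by 1.47 ± 0.27 in zone 3 against zone 2 (SE, adjusted p = 0.00752). The other called members carry symbols that differ in case alone, MSH1 (GRMZM2G360873, lower) and msh1 (GRMZM2G036217, higher), and which of them is the mismatch repair gene was not settled. Their log2 fold changes were -1.69 ± 0.47 and 3.23 ± 0.38 (SE, adjusted p = 0.0438 and 0.000437). For MSH1 the adjusted p was 0.123 and 0.133 without zone 1 replicates 1 and 3, and 0.25 and 0.0944 without zone 2 replicates 2 and 3. TERT, the catalytic subunit of telomerase, had 2.85 and 3.19 CPM in zone 2, against 15.6, 14.8 and 21 CPM in zone 1 (log2 fold change -2.44 ± 0.46, SE, adjusted p = 0.00656). The TERT libraries did not overlap, which was a condition for naming it. Its adjusted p was 0.0598 without zone 2 replicate 2 and 0.0507 without zone 2 replicate 3.

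**Figure D3:**
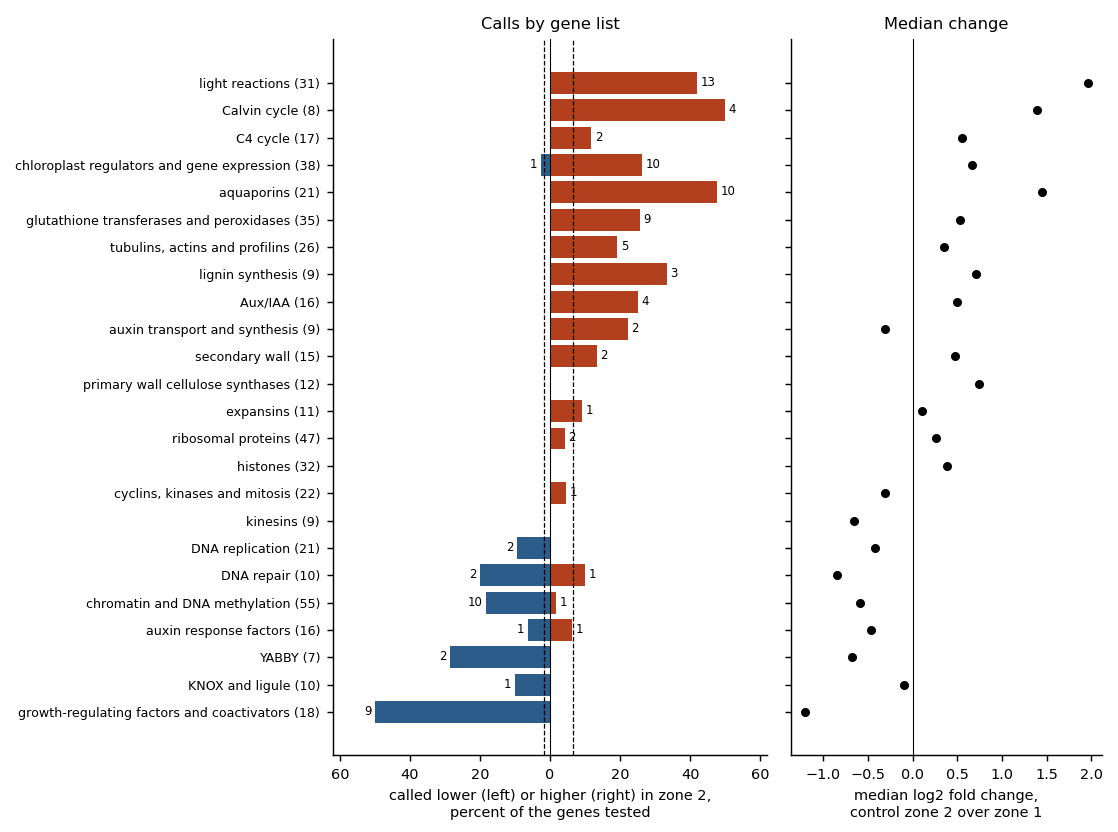
Share of the tested genes of each list that was called lower (to the left) or higher (to the right) in control zone 2 against zone 1, in percent, with the median log2 fold change beside each list; dashed lines mark 6.63% higher and 1.69% lower over all genes tested. Growth-regulating factors reach furthest on the lower side, and aquaporins, Calvin cycle and light reaction genes on the higher side.

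Many aquaporins, the water channels of the plasma membrane and the tonoplast, were higher in zone 2. Of 21 members tested 10 were higher and none was lower, with a median log2 fold change of 1.45. The share called higher over all genes tested was 6.63%. The list holds 29 aquaporins, tested or not. Their summed level was 2655 and 2739 CPM in zone 2, against 619.7, 906.9 and 893.8 CPM in zone 1. PIP2-1, a plasma membrane channel, had 761 and 800 CPM in zone 2, against 136, 164 and 205 CPM in zone 1 (log2 fold change 2.28 ± 0.30, SE, adjusted p = 0.000934). PIP1-1, also of the plasma membrane, had 1003 and 968 CPM in zone 2, against 168, 302 and 275 CPM in zone 1 (log2 fold change 2.06 ± 0.31, SE, adjusted p = 0.00195). The zone 2 libraries agreed closely for both genes and stood well above all zone 1 libraries. PIP2-4 was low in zone 1, with 5.69 and 20.3 CPM in zone 2, against 0.718, 0.558 and 0.354 CPM in zone 1 (log2 fold change 4.66 ± 0.65, SE, adjusted p = 0.00121). The calls of these 3 genes held in all fits with a library left out, and the count of aquaporins called higher was 6, 7 and 7 without zone 1 replicates 1, 2 and 3, and 5 and 6 without zone 2 replicates 2 and 3. With reads assigned to 1 transcript only it was 5. In control zone 3 PIP2-1 reached 1177, 1643 and 1801 CPM (log2 fold change over zone 2 of 1.01 ± 0.31, SE, adjusted p = 0.0523), and 4 of the 21 genes were called higher there.

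Some genes of the wall and the cytoskeleton rose. Of 26 tubulins, actins and profilins 5 were higher (TUBB4, tua5, TUBA6, actin and an Actin-7 gene, GRMZM2G082484) and none was lower. The share called higher over all genes tested was 6.63%. Of the 26, 3 were called higher with reads assigned to 1 transcript only. The beta-tubulin gene TUBB4 had 53 and 95.7 CPM in zone 2, against 15.8, 9.37 and 12.7 CPM in zone 1 (log2 fold change 2.62 ± 0.34, SE, adjusted p = 0.0008). The alpha-tubulin gene tua5 had 591 and 841 CPM in zone 2, against 233, 247 and 265 CPM in zone 1 (log2 fold change 1.59 ± 0.28, SE, adjusted p = 0.00439). Both stood clear of zone 1 in each library, as did nearly all genes called. The count of cytoskeleton genes called higher was 3 without zone 2 replicate 3 and 4 or 5 without any of the other 4 libraries. BRK1, the called one of 16 cell layer and stomata genes, acts on actin in the lobed epidermal cells of the maize leaf and had 46.6 and 30.1 CPM in zone 2, against 12.2, 18.8 and 12.1 CPM in zone 1 (log2 fold change 1.48 ± 0.29, SE, adjusted p = 0.00865, and 0.106 without zone 2 replicate 2).

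Expansins, which loosen the wall, were mostly not called: 1 of 11 was higher, beside 6.63% over all genes tested. That member, expB4, had 10.9 and 9.06 CPM in zone 2, against 2.69, 3.18 and 3.61 CPM in zone 1 (log2 fold change 1.71 ± 0.33, SE, adjusted p = 0.00761, and 0.0635 without zone 2 replicate 2). None of 12 primary wall cellulose synthases passed the test, and in that fit the sign of their median depended on 1 library. A positive log2 fold change was found for 10 of the 12, with a median of 0.75. Without zone 2 replicate 3 only 5 were positive and the median was -0.08. Their summed level was 1170 and 2705 CPM in zone 2 replicates 2 and 3, against 1367, 1004 and 1518 CPM in zone 1 replicates 1, 2 and 3. Zone 2 was thus above the zone 1 library of the same number in replicates 2 and 3. A fit with the replicate number as a block called 6 of the 12 higher and 1 lower, with a median of 0.575. What a replicate number shares is not given in the labels. Of 9 lignin genes 3 were higher. No lignin gene or expansin was called with reads assigned to 1 transcript only. PAL1, the phenylalanine ammonia-lyase that opens the pathway, had 342 and 334 CPM in zone 2, against 141, 181 and 145 CPM in zone 1 (log2 fold change 1.19 ± 0.23, SE, adjusted p = 0.00773, and 0.0538 without zone 2 replicate 2). The other members called were ccoaomt1 and cad1, and without zone 2 replicate 2 none of the 9 was called. The count was 1, 2 and 3 without zone 1 replicates 1, 2 and 3, and 1 without zone 2 replicate 3. The factor Myb20, called with bk4 among 15 secondary wall genes, had 1.31 and 6.12 CPM in zone 2, against 0 in all zone 1 libraries. Those are 54 reads over zone 2 and none over zone 1, a level at least 62.67-fold higher when 3 reads over the zone 1 libraries are the floor. In zone 3 it had 26.4, 29.2 and 43.2 CPM.

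Part of the photosynthetic genes were already higher in zone 2. All 31 light reaction genes tested had a positive log2 fold change, with a median of 1.96, and 13 of them were called higher. Their summed level was 4221 and 3215 CPM in zone 2, against 530.0, 1452 and 1178 CPM in zone 1. The lowest of these was zone 1 replicate 1, and without it the median was 1.64 and 11 genes were called. FDX1, a leaf ferredoxin, had 144 and 119 CPM in zone 2, against 10.9, 25.5 and 25.4 CPM in zone 1 (log2 fold change 2.74 ± 0.39, SE, adjusted p = 0.00129). PSA3, an assembly factor of photosystem I, had 20.8 and 25.5 CPM in zone 2, against 7.27, 6.58 and 6.79 CPM in zone 1 (log2 fold change 1.82 ± 0.23, SE, adjusted p = 0.000624). The zone 1 libraries of PSA3 lay close together, replicate 1 included. The photoprotection gene psbs1 had 41.4 and 46.3 CPM in zone 2, against 0.628, 7.09 and 5.16 CPM in zone 1, with its lowest level in replicate 1 (log2 fold change 3.39 ± 0.65, SE, adjusted p = 0.00747). These 3 genes kept their calls in all fits with a library left out. The count of light reaction genes called higher was 13 and 10 without zone 1 replicates 2 and 3, and 7 and 9 without zone 2 replicates 2 and 3. It was 7 with reads assigned to 1 transcript only. The share called higher over all genes tested was 6.63%. The chlorophyll-binding gene CAB1 showed how wide the spread could be, with 1289 and 830 CPM in zone 2, against 110, 395 and 314 CPM in zone 1, and it was not called (log2 fold change 2.03 ± 0.69, SE, adjusted p = 0.0933).

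Some genes of carbon fixation were higher too. Of 8 Calvin cycle genes 4 were higher (rbcS, RBCS, gpb1 and bsd2) and none was lower, with a median of 1.40. The Rubisco small subunit gene rbcS had 31.7 and 24.7 CPM in zone 2, against 0.269, 3.29 and 2.62 CPM in zone 1 (log2 fold change 3.78 ± 0.70, SE, adjusted p = 0.00606). The gene gpb1, for a chloroplast glyceraldehyde-3-phosphate dehydrogenase subunit, had 31.1 and 35.8 CPM in zone 2, against 7.62, 14 and 11.3 CPM in zone 1 (log2 fold change 1.67 ± 0.29, SE, adjusted p = 0.00415). The count of Calvin cycle genes called was 2 without zone 1 replicate 3 or without zone 2 replicate 2. It was also 2 with reads assigned to 1 transcript only. Zone 1 replicate 1 had the lowest rbcS level, and without it 3 Calvin cycle genes were called, the median was 1.15 and the log2 fold change of rbcS was 3.32 (adjusted p = 0.0147). Among 17 genes of the C4 cycle, the carbon pump of maize leaves, 2 were higher, mdh6 and the triose phosphate translocator TPT, whose adjusted p was 0.0903 without zone 2 replicate 3. The share called higher over all genes tested was 6.63%, so 2 of 17 is not far from it. With reads assigned to 1 transcript only, 1 C4 cycle gene was called. NADP-malate dehydrogenase mdh6 had 65.7 and 73.0 CPM in zone 2, against 21.4, 23.2 and 18.6 CPM in zone 1 (log2 fold change 1.78 ± 0.22, SE, adjusted p = 0.000539). The carboxylase PEPC1 that fixes carbon first had 1.09 and 2.68 CPM in zone 2, against 0.179, 0.837 and 0.424 CPM in zone 1, and was not called (adjusted p = 0.119). It had 10.5, 13.8 and 27.2 CPM in zone 3, a log2 fold change over zone 2 of 3.18 ± 0.73 (SE, adjusted p = 0.0167).

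Some genes that build plastids were higher as well. Of 38 chloroplast regulators and plastid gene expression genes 10 were higher and 1, rpot1, was lower. The shares over all genes tested were 6.63% and 1.69%. Only 3 of the 38 were called higher, and none lower, with reads assigned to 1 transcript only. The plastid sigma factor sig2A, which directs transcription in the plastid, had 106 and 139 CPM in zone 2, against 47.4, 48.5 and 55.6 CPM in zone 1 (log2 fold change 1.34 ± 0.24, SE, adjusted p = 0.00451). TATB, a component of a thylakoid protein import route, had 40.5 and 42.9 CPM in zone 2, against 17.7, 16.2 and 15.8 CPM in zone 1 (log2 fold change 1.40 ± 0.21, SE, adjusted p = 0.00166). A gene for plastid ribosomal protein L35, prpl35-1 (GRMZM2G175755), had 74.2 and 52.4 CPM in zone 2, against 12.4, 11.4 and 12.1 CPM in zone 1 (log2 fold change 2.47 ± 0.26, SE, adjusted p = 0.000241). All 3 genes kept the call in each fit with a library left out. The number of list members called higher was 4 without zone 1 replicate 1 and 5 without any of the other 4 libraries.

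Some detoxification, defence and surface genes also rose. Of 35 glutathione transferases and peroxidases 9 were higher and none was lower, and all 9 are glutathione transferases, which join glutathione to reactive compounds. The transferase gst9 (chromosome 9, 151986612 to 151988051) had 39.8 and 47.3 CPM in zone 2, against 3.95, 3.52 and 2.33 CPM in zone 1 (log2 fold change 3.81 ± 0.29, SE, adjusted p = 4.71e-05). Its relative gst12 had 145 and 134 CPM in zone 2, against 54.2, 53.2 and 54.3 CPM in zone 1 (log2 fold change 1.44 ± 0.16, SE, adjusted p = 0.000383). The replicates of gst12 were nearly level within each zone. Both held in every fit with a library left out, and the list had 7, 9 and 7 calls without zone 1 replicates 1, 2 and 3, and 6 and 8 without zone 2 replicates 2 and 3. It had 5 with reads assigned to 1 transcript only. The share called higher over all genes tested was 6.63%.

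Of 13 benzoxazinoid genes 2 were higher, beside 6.63% over all genes tested. Both are for beta-glucosidases, enzymes known to release these defence compounds from their sugar conjugates. Their calls held in every fit with a library left out. The median of the 13 was 0.132, and 0.617 without zone 1 replicate 1. Summed over the 15 listed genes, tested or not, that library had 2098 CPM. Zone 1 replicates 2 and 3 had 881.4 and 789.3 CPM, and zone 2 had 1676 and 2046 CPM. The gene glu1 had 559 and 996 CPM in zone 2, against 66.8, 35.8 and 82.3 CPM in zone 1 (log2 fold change 3.71 ± 0.63, SE, adjusted p = 0.00372). For glu2 there were 10.9 and 34.1 CPM in zone 2, against 0.0558 CPM in zone 1 replicate 2 and 0 in the other zone 1 libraries. These are 317 reads over zone 2 and 1 over zone 1, a ratio of 1103.7 with a 95% counting interval of 196.7 to 43731.1. The wax gene gl1, called with WIN1 among 11 cuticle genes, had 1.97 and 2.93 CPM in zone 2, against 1 read over the zone 1 libraries, a ratio of 111.4 with a 95% counting interval of 18.6 to 4536.6. In zone 3 gl1 had 0.498, 0.974 and 1.29 CPM. The plt2 gene (chromosome 3, 230694239 to 230696031) had 153 and 116 CPM in zone 2, against 2.96, 4.30 and 2.76 CPM in zone 1 (log2 fold change 5.39 ± 0.39, SE, adjusted p = 3.73e-05). For plt2 no zone 1 library came near either zone 2 library, but a lack of overlap was a condition for naming it.

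Single transcription factors rose, while the share called higher in the NAC, SBP, bZIP, MYB, bHLH and homeobox families stayed near the 6.63% over all genes tested. Of 7 TCP genes 2 were higher, TCP30 and TCP4, a larger share. That count was 1 without each of zone 1 replicates 1, 2 and 3. None of 14 WRKY, 16 MADS, 10 GATA and DOF, or 8 GRAS genes was higher. NAC95, of the NAC family, had 7.66 and 8.16 CPM in zone 2, against 0.718, 0.335 and 0.424 CPM in zone 1 (log2 fold change 4.08 ± 0.41, SE, adjusted p = 0.000177). The SBP factor sbp1 had 5.25 and 5.36 CPM in zone 2, against 0.538, 0.391 and 0.495 CPM in zone 1 (log2 fold change 3.52 ± 0.57, SE, adjusted p = 0.00267). With reads assigned to 1 transcript only, no SBP gene was called. For bZIP89 there were 29.1 and 26.4 CPM in zone 2, against 4.04, 3.40 and 3.75 CPM in zone 1 (log2 fold change 2.96 ± 0.28, SE, adjusted p = 0.000171). All 3 had tight replicates, and their calls held whichever library was left out. By family, 2 of 21 NAC genes (NAC95 and ANAC010), 1 of 23 SBP genes, 2 of 29 bZIP genes (bZIP89 and bZIP34) and 2 of 40 MYB genes (Myb20 and MYB94) were higher, and none of their members was lower. Of 40 bHLH genes 2 were higher (bHLH36 and bHLH165) and 1 was lower (bHLH27), and of 20 homeobox genes HB21 was higher and HB2 was lower. Of these, ANAC010, Myb20 and bHLH36 also kept the call in all 5 fits with a library left out, and bZIP34, MYB94, bHLH165, bHLH27, HB21 and HB2 lost it in at least 1.

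**Figure D4:**
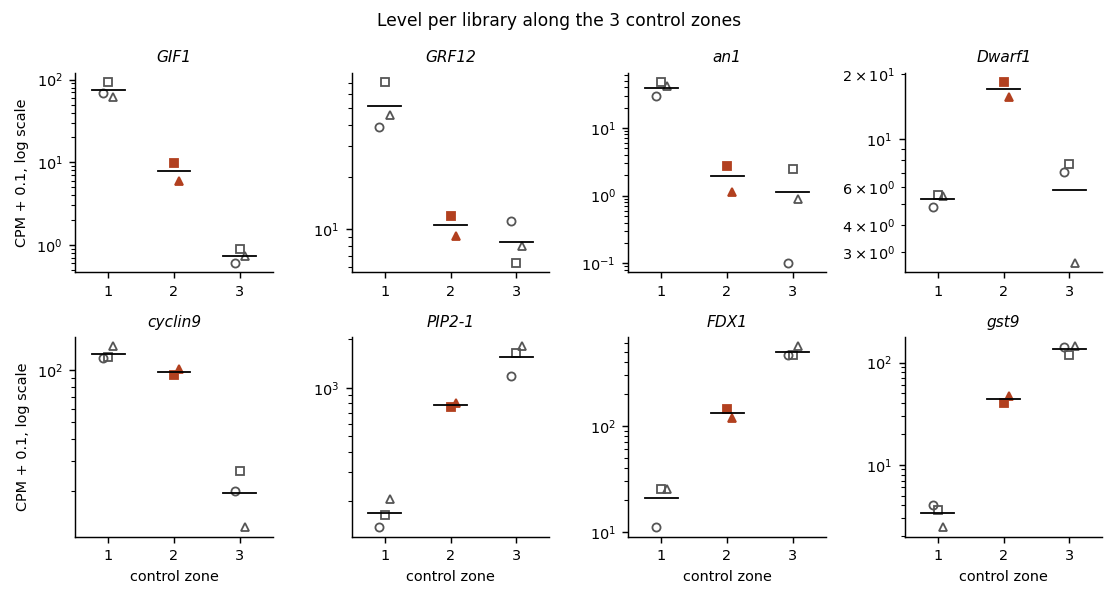
CPM (with 0.1 added, log axis) of 8 genes in each control library of zones 1, 2 and 3; the symbols are replicates 1, 2 and 3, bars are means, and zone 2 is filled. GIF1, GRF12 and an1 are lower in zone 2 than in zone 1, cyclin9 is at 93.5 and 102 CPM in zone 2 before 12.2 to 26.1 CPM in zone 3, Dwarf1 is highest in zone 2, and PIP2-1, FDX1 and gst9 are higher in zone 2 than in zone 1.

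Few genes went between next to no reads and a high level. Only 6 genes had at most 3 reads over the zone 1 libraries and at least 10 CPM on average in zone 2, and 3 genes had the opposite pattern. These counts are not alike, because 3 reads are 0.0694 CPM over zone 1 and 0.242 CPM over zone 2. With at least 1 CPM in place of 10 they were 63 and 140. With under 1 CPM on average in place of at most 3 reads, and at least 10 CPM in the other zone, they were 23 and 14. The largest of the 6 was GRMZM2G384780 (chromosome 4, 171662243 to 171664233), which has no name in RefSeq. It had 34.1 and 119 CPM in zone 2, against 0, 0.0558 and 0.0707 CPM in zone 1, and 2170, 1706 and 2356 CPM in zone 3. That is 1089 reads over zone 2 and 2 over zone 1, a ratio of 1895.9 with a 95% counting interval of 523.6 to 15674.5. The glucosidase gene glu2 is another of the 6. On the falling side, beside yab14, GRMZM2G131409 had 0.219 and 0.128 CPM in zone 2, against 6.82, 31.7 and 12.0 CPM in zone 1, which is 2 reads against 815. The third, GRMZM2G106363, was not called (adjusted p = 0.394). Another unnamed gene, GRMZM2G112210, had 10.1 and 2.30 CPM in zone 2, against 345, 619 and 388 CPM in zone 1, and its log2 fold change was -6.17 ± 0.87 (SE, adjusted p = 0.0017). All of these unnamed genes were picked after their values were seen.

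The difference between the second and the first step was tested directly, as control zone 3 over zone 2 minus control zone 2 over zone 1. It was added after the values were seen. Of the 23899 genes 12 (0.0502%) were called, all with the second step lower, and 1278 had an unadjusted p under 0.05. The call depends on single libraries: none was left without zone 2 replicate 2, 1 without zone 2 replicate 3, and 6, 3 and 13 were called without zone 1 replicates 1, 2 and 3. Some of the 12 peaked in zone 2. GRMZM2G388045 had 0.0897 CPM in 1 zone 1 library and 0 in the other two, then 8.97 and 6.25 CPM in zone 2, and 0 in every zone 3 library. GRMZM2G107686 had 2.96, 1.23 and 2.69 CPM in zone 1, 11.6 and 10.2 CPM in zone 2, and 0 in every zone 3 library. For GRMZM2G083526 the fall came mainly in the second step, with 143, 107 and 139 CPM in zone 1, 51.9 and 49.7 CPM in zone 2 and 1.49, 1.36 and 0.161 CPM in zone 3. The named gene among the 12 was plt2, whose second step was smaller than its first by 3.76 ± 0.57 on the log2 scale (SE, adjusted p = 0.0498).

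The same step was read in libraries outside the main contrast, those of plants under the filter that let UV-B pass. Of the genes called higher in control plants 1583 of 1585 also had a positive log2 fold change of UV-B zone 2 over UV-B zone 1, with a median of 1.54. Of those called lower 404 of 405 had a negative one, with a median of -1.27, while over all genes tested 12109 (50.7%) were positive. With 1 library in UV-B zone 1, which was assumed to vary like the other groups, 758 genes (3.17%) were called, 567 (2.37%) higher and 191 (0.799%) lower. Without control zone 1 replicate 3, which helps set the spread, that count was 437, and without UV-B zone 2 replicate 1 it was 323. GIF1 had 6.97, 6.48 and 5.32 CPM in UV-B zone 2, against 83.2 CPM in UV-B zone 1 (log2 fold change -3.56 ± 0.32, SE, adjusted p = 0.00376). FDX1 had 262, 157 and 148 CPM in UV-B zone 2, against 22.9 CPM in UV-B zone 1 (log2 fold change 3.23 ± 0.59, SE, adjusted p = 0.0183). In both genes all UV-B zone 2 libraries lay on the same side of UV-B zone 1 as in control plants. Across GRF and GIF genes 7 of 18 were lower in UV-B zone 2, and 3 of 21 aquaporins and 7 of 31 light reaction genes were higher. No gene was called for a difference of this step between UV-B and control plants by edgeR, DESeq2 or limma-voom, with 150, 166 and 257 genes at an unadjusted p under 0.05. UV-B zone 1 is a single library in that test, and a p that misses the threshold does not show that the step was alike.

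**Figure D5:**
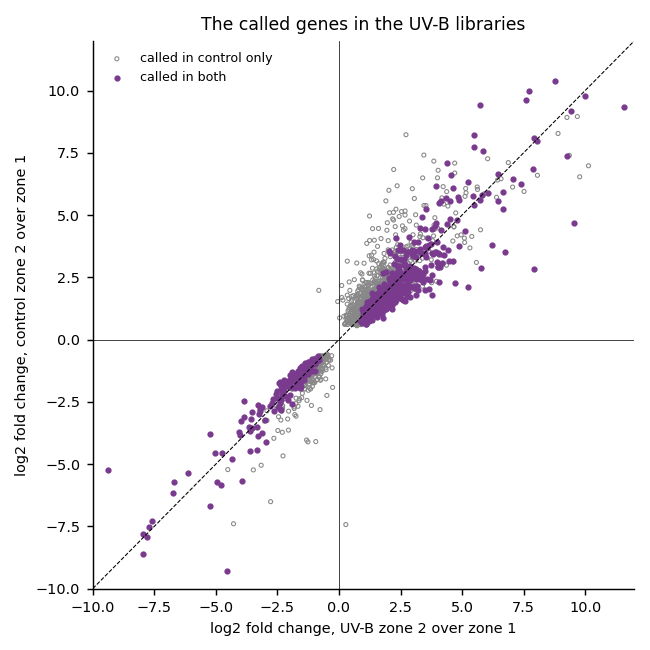
Log2 fold change of zone 2 over zone 1 in control plants (vertical axis) against that in UV-B plants (horizontal axis), for the 1990 genes called in control plants. Of the 1585 genes called higher 1583 are positive in UV-B plants, and of the 405 called lower 404 are negative there.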

How the data were processed

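Stranded poly-A mRNA libraries were sequenced in short paired-end reads, and shallow libraries were sequenced again, per the labels' protocols. The authors deposited whole-number counts of total and of unique reads per transcript, per the file headers, with no normalization. Names of the aligner, counter and build were not given in the sources used here. Another 21 value columns, of 3 libraries that match no label, were not used. Total counts of 62892 transcripts were summed to 39145 genes; 18842 matched a record of RefSeq (Zm-B73-REFERENCE-NAM-5.0), from which only symbols were taken. Gene coordinates are those of the deposited table. Total reads include reads shared between transcripts, so members of near-identical families (histones, tubulins, aquaporins, Rubisco and chlorophyll-binding genes) are uncertain.

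The test was that of edgeR 4.0.16 under R 4.3.3 (filterByExpr, TMM, two-sided quasi-likelihood F test, Benjamini-Hochberg adjustment, threshold 0.05) in a model of 6 groups over the 14 libraries with more than 1000000 reads. UV-B zone 3 replicate 1, with 728 reads, was dropped. CPM carry no TMM scaling. Standard errors come from the F statistic. Counting intervals (95%) and floors (3 reads over a group) cover counting error only. The scripts were tested on simulated data. Alternatives used DESeq2 1.42.0, limma 3.58.1, unique reads, thinned counts, other filters, other libraries and a replicate block.

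The members and the gene lists were chosen with earlier results of these data known. Named genes are up to 10 in each direction with the largest log2 fold change among named, called genes of at least 10 CPM whose groups do not overlap, and from each list up to 4 called members with the smallest adjusted p, or up to 2 with the highest CPM where none was called. Other genes named were chosen after their values were seen: GRF2, GRF3, GRF4, GRF7, GRF8, GRF11, GIF2, MCM6, cyclin9, kn1, gigz1a, CAB1, TUBA6, mbd101, rpot1, PEPC1 and those with no symbol. A search for promoter motifs was not run.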

Additional observations from a re-analysis of the deposited data

How the results depend on the processing

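Of the 109 named genes that were called, 44 kept the call whichever of the 5 libraries was left out. All 109 kept their sign, which leaving out 1 library can hardly change where the zones do not overlap. The count of 1990 genes called between control zone 2 and zone 1 was 1910 with DESeq2 size factors, 1787 without a filter, 2110 with limma-voom and 1804 after thinning to equal depth. It was 3011 with DESeq2, 823 with unique reads, 366 when tested beyond 2-fold, 810 at an adjusted p of 0.01, and 879 to 1290 with a library left out. Genes called higher numbered 689 with unique reads, 333 beyond 2-fold and 778 to 1076 with a library left out. Genes called lower numbered 1033 with DESeq2, 626 with limma-voom, 717 with the 8 control libraries alone, 134 with unique reads, 33 beyond 2-fold and 101 to 214 with a library left out. For the step under UV-B the count was 2191 with DESeq2, 1800 with limma-voom, 201 with unique reads and 323 to 845 with a library left out. For control zone 3 against zone 2 it was 1526 with unique reads and 558 to 3045 with a library left out. The test of the difference between steps called 86 with DESeq2, 6 with limma-voom and 0 to 13 with a library left out. The cause of these moves was not tested; unique reads and left-out libraries also mean fewer reads or samples.

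The labels number the replicates alike in both zones without saying what a number shares, and only 2 numbers are found in both groups. Same-numbered zone 1 and zone 2 libraries deviated together (correlations 0.653 and 0.598 over 13808 genes). Zone 2 has only 2 libraries, so their deviations from the zone mean mirror each other. These correlations are therefore not independent of each other. With a replicate block, 4710 genes were called in the main comparison (2909 higher, 1801 lower), 4887 in the 8 control libraries alone (2865 higher, 2022 lower), 3101 under UV-B, 7032 for control zone 3 against zone 2 and 171 for the difference between steps. In the main comparison the block also gave 6 of 12 cellulose synthases higher and 1 lower, 5 of 9 lignin genes higher and 1 lower, and 7 of 21 replication genes, 4 of 22 cyclins, kinases and mitosis genes and 3 of 9 kinesins lower.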
